A study of Homo sapiens with 4 samples.

Results

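The BCL2 family decides whether the outer membrane of the mitochondrion stays closed or is opened during apoptosis. The anti-apoptotic members BCL2, MCL1, BCL2L1 (BCL-XL) and BCL2A1 (BFL1) hold the effectors BAX and BAK1 in check, and once active the effectors oligomerize in that membrane and release cytochrome c, which triggers the caspases. A further group, the BH3-only proteins, carries a short helix that fits a groove on the anti-apoptotic members, and some of its members also activate the effectors directly. Myeloid leukemia cells often rely on BCL2 or MCL1 for survival, and drugs that mimic a BH3 helix are used against them. Here 10 genes of this family were followed, 4 anti-apoptotic genes (BCL2, MCL1, BCL2L1, BCL2A1), both effectors (BAX, BAK1) and 4 BH3-only genes (BCL2L11, which encodes BIM; BBC3, which encodes PUMA; PMAIP1, which encodes NOXA; and BID). They were chosen by symbol, and all 10 were found among the 23622 genes of the table.

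RNA was sequenced from MV4-11, a human acute myeloid leukemia cell line, after knockdown of IRF1, an interferon-responsive transcription factor. Cells carried a lentiviral short hairpin RNA, in the pLKO.1 backbone, that was either a control (sh-NC, labelled as wild type with no treatment) or directed at IRF1 (sh-IRF1), and each of these groups has 2 libraries. All cells went through infection and puromycin selection and were collected after 3 days of selection. The hairpin behind each sh-IRF1 library is not given in the sources used here, nor is it stated that the libraries of a group came from separate cultures. The p-values therefore measure only the spread between these libraries, and that spread is estimated largely from other genes of like level.

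The values are normalized counts, that is, the reads of a gene divided by 1 size factor per library. Depth lay between 17635908 and 18695337 reads, of which 3.92% to 4.51% fell on mitochondrial genes, and no library stood apart in these measures. Fold changes are differences of log2(normalized count + 1) between sh-IRF1 and sh-NC; at few reads this understates a change. The test was limma's, run on the 14120 genes that reached a normalized count of 10 in 2 or more libraries, and a gene was called at a Benjamini-Hochberg adjusted p under 0.05. IRF1 itself had normalized counts of 785 and 738 in the sh-NC libraries and 429.7 and 432 in the sh-IRF1 libraries, a log2 fold change of -0.82 (SE 0.0904, adjusted p = 1.69e-10). The targeted gene was thus lower in both knockdown libraries, at 56.6% of the control mean, although 2 genes on the opposite strand cover 22.9% of its exonic bases.

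All 10 markers listed for myeloid leukemia cells were present. LYZ, which encodes lysozyme, was higher after knockdown (1824 and 1785 against 3276 and 3218), and MPO, which encodes myeloperoxidase, was lower (477 and 443 against 185 and 158). Erythroid markers were not among the listed genes, the summed T cell markers stayed at or below 2.81 in every library, and epithelial or stromal markers summed to between 99.6 and 191. The B cell markers summed to 88.2 and 120.2 in sh-NC and to 254 and 305 in sh-IRF1, with CD79A rising from 50.3 and 43.1 to 190.0 and 250.2 while MS4A1 was not listed. The part of these shifts in the BCL2 family values was not tested. In bulk RNA, fewer cells of a kind and less RNA per cell cannot be told apart.

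The feature that joins most of the family is the BH3 motif, whose core is a leucine codon, any 3 codons, a glycine or alanine codon and an aspartate codon. The 18 coding bases of this core were searched in the canonical GENCODE transcripts on GRCh38. A single match was found in 9 of the 10 genes, and these bases are shown because they mark the core of this shared motif. Capitals mark the leucine codon and the last codon pair.
BCL2, chr18:63318361-63318378, minus strand, from codon 97: CTCcgccaggccGGCGAC
MCL1, chr1:150578877-150578894, minus strand, from codon 213: TTAcgacgggttGGGGAT
BCL2L1, chr20:31721934-31721951, minus strand, from codon 90: CTGagggaggcaGGCGAC
BAX, chr19:48955787-48955804, plus strand, from codon 63: CTCaagcgcatcGGGGAC
BAK1, chr6:33575399-33575416, minus strand, from codon 78: CTCgccatcatcGGGGAC
BCL2L11, chr2:111150103-111150120, plus strand, from codon 152: TTGcggcgtattGGAGAC
BBC3, chr19:47226591-47226608, minus strand, from codon 141: CTGcggcggatgGCGGAC
PMAIP1, chr18:59902673-59902690, plus strand, from codon 29: CTCaggagatttGGAGAC
BID, chr22:17739427-17739444, minus strand, from codon 90: CTCgcccaggtcGGGGAC
BBC3 was the only one of these 9 with the alanine codon GCG where the others had glycine. PMAIP1 was the shortest, with 54 codons against 350 for MCL1. BCL2A1 held no match to these letters, which says only that this exact pattern is not in its coding bases.

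Of the 10 genes, 9 passed the filter on low values and 8 were called, 3 higher and 5 lower in sh-IRF1. Over all tested genes 42.2% were called in either direction, 20.3% higher and 21.9% lower, and among genes averaging a normalized count of 100 or more, as all 9 tested members do, 52.9% were called. The members were thus called in 88.9% of cases, in libraries where calls were common throughout the transcriptome, and most of the members' changes were small. Only 3 of the 9, BCL2, BCL2L11 and BBC3, passed a log2 fold change of 0.5 as well, where 15.8% of all tested genes did. The libraries of the groups did not overlap for any of the 9, as for 69.2% of all tested genes. Their median log2 fold change was -0.24, beside -0.0019 over all tested genes.

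**Figure D1:**
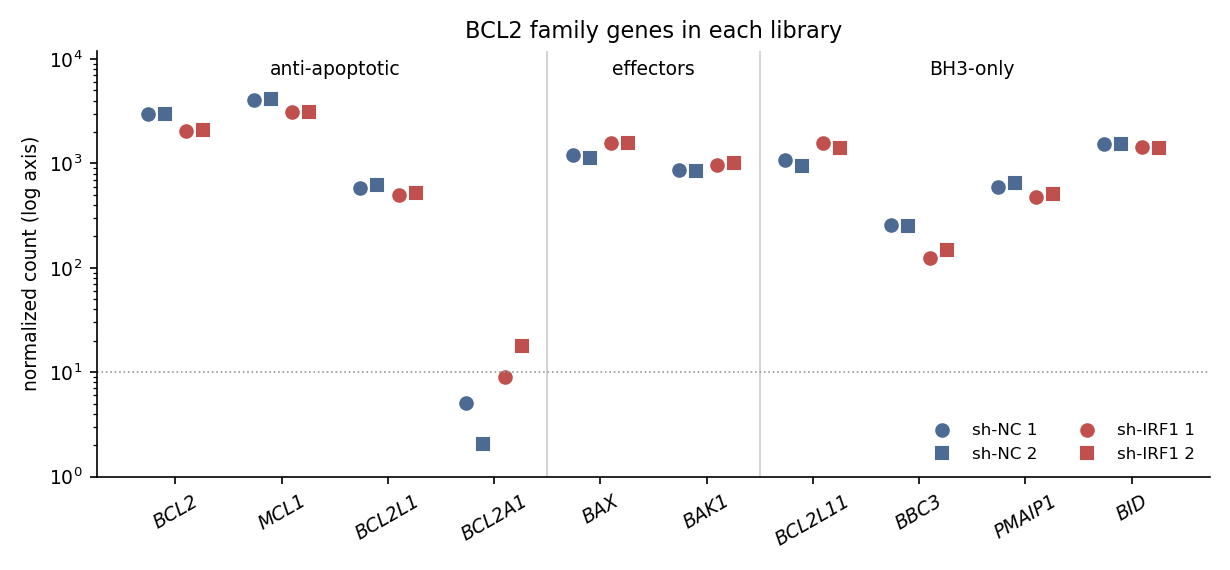
Normalized counts (log axis) of the 10 BCL2 family genes in each of the 4 libraries, with sh-NC in blue, sh-IRF1 in red, circles for library 1, squares for library 2, and a dotted line at 10, the filter on low values. BCL2, MCL1, BCL2L1, BBC3, PMAIP1 and BID sat lower in both sh-IRF1 libraries, BAX, BAK1 and BCL2L11 sat higher, and BCL2A1 lay near or below the line throughout.

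The 3 tested anti-apoptotic genes were all called lower. BCL2, the target of venetoclax, had normalized counts of 2988 and 2964 in sh-NC and 2055 and 2109 in sh-IRF1. Both knockdown libraries lay far below both controls, at 70.0% of their mean, and the log2 fold change was -0.52 (SE 0.0466, adjusted p = 5.53e-13). MCL1, a short-lived protein that myeloid cells need for survival, had normalized counts of 4084 and 4124 in sh-NC and 3138 and 3085 in sh-IRF1. It stood at 75.8% of control, with a log2 fold change of -0.40 (SE 0.0408, adjusted p = 2.04e-11). MCL1 shares 5.27% of its exonic bases with ADAMTSL4, on the opposite strand, and ADAMTSL4-AS1. ADAMTSL4 was called lower too (766 and 815 against 622 and 734, log2 fold change -0.23, adjusted p = 0.0269). Of all tested genes, 89.1% had a higher log2 fold change than BCL2 and 84.7% a higher one than MCL1.

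BCL2L1, whose main product BCL-XL protects many cell types, changed less. Its normalized counts were 587 and 621 in sh-NC and 494 and 527 in sh-IRF1, 84.5% of control. The groups did not overlap, but the libraries within a group also differed from each other, and the log2 fold change of -0.24 (SE 0.0922) had an adjusted p of 0.0302. The call was lost on scaling by total reads (adjusted p = 0.0794), with DESeq2 (0.0805), and without sh-NC library 2 (0.154), sh-IRF1 library 1 (0.185) or sh-IRF1 library 2 (0.0523). BCL2L1 also shares 41.3% of its exonic bases with ABALON, a gene on the opposite strand that had normalized counts of 8.21 and 24.7 in sh-NC and 18.9 and 24.4 in sh-IRF1. The use of strand in counting is not given in the sources used here, so reads of the pair cannot be told apart.

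BCL2A1, an NF-kB target in many blood cells, was at the edge of detection. It had 5 and 2 reads in sh-NC and 9 and 19 in sh-IRF1, so both knockdown libraries were above both controls, but they differed from each other by more than the lower of them differed from the higher control. It did not pass the filter and carries no call. Without the filter, BCL2A1 had a log2 fold change of 1.66 with an adjusted p of 0.0840 in limma, and DESeq2 gave 1.90 with an adjusted p of 0.158. BCL2A1 was thus called by neither.

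Both effectors were called higher. BAX, which is held in the cytosol until it is activated, had normalized counts of 1211 and 1137 in sh-NC and 1582 and 1567 in sh-IRF1. Its knockdown libraries lay close together and well above the controls, at 134% of their mean, with a log2 fold change of 0.42 (SE 0.0607, adjusted p = 1.08e-07). BAK1, which sits in the mitochondrial outer membrane before activation, had normalized counts of 859 and 846 in sh-NC and 969 and 1008 in sh-IRF1. The mean was 116% of control and the log2 fold change was 0.21 (SE 0.0719, adjusted p = 0.0140). This smaller call was lost without sh-NC library 2 (adjusted p = 0.0518) and without sh-IRF1 library 2 (adjusted p = 0.126). Reads listed under the pseudogene BAK1P1 came to 1.81% of those of BAK1.

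The BH3-only genes did not move together. BCL2L11 encodes BIM, which binds every anti-apoptotic member and can activate BAX and BAK directly. Its normalized counts were 1074 and 946 in sh-NC and 1562 and 1399.8 in sh-IRF1. The lower knockdown library was still above the higher control, the mean was 147% of control, and the log2 fold change of 0.55 (SE 0.0678, adjusted p = 2.83e-09) was the largest rise among the 9. BCL2L11 shares 10.8% of its exonic bases with MIR4435-2HG on the opposite strand, which was higher too (303 and 262 against 445 and 417, log2 fold change 0.61, adjusted p = 2.59e-05), and reads of the pair cannot be told apart either.

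BBC3 encodes PUMA, a BH3-only protein that binds all anti-apoptotic members. It moved the other way, with normalized counts of 255 and 249.6 in sh-NC and 124 and 147 in sh-IRF1. The controls were nearly equal, both knockdown libraries were far below them, at 53.7% of control, and the log2 fold change of -0.90 (SE 0.158, adjusted p = 6.52e-06) was the largest of the 9 tested members in either direction. Only 4.04% of all tested genes had a lower value. PMAIP1 encodes NOXA, which binds mainly MCL1 and BFL1. Its normalized counts were 599 and 648 in sh-NC and 481 and 506 in sh-IRF1, at 79.2% of control, with a log2 fold change of -0.34 (SE 0.0924, adjusted p = 0.00264).

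BID links the death receptors to mitochondria once caspase-8 cleaves it. It had normalized counts of 1537 and 1546 in sh-NC and 1436 and 1405 in sh-IRF1. The knockdown libraries were both below the controls, but the log2 fold change of -0.12 (SE 0.0578) did not pass the test (adjusted p = 0.0994). By role, then, 3 of 3 tested anti-apoptotic members fell and 2 of 2 effectors rose. Of 4 BH3-only members 1 rose, 2 fell and 1 was not called. Calls were common in general, with 20.3% of all tested genes called higher and 21.9% lower. The calls of BCL2L1 and BAK1 were lost under some settings.

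**Figure D2:**
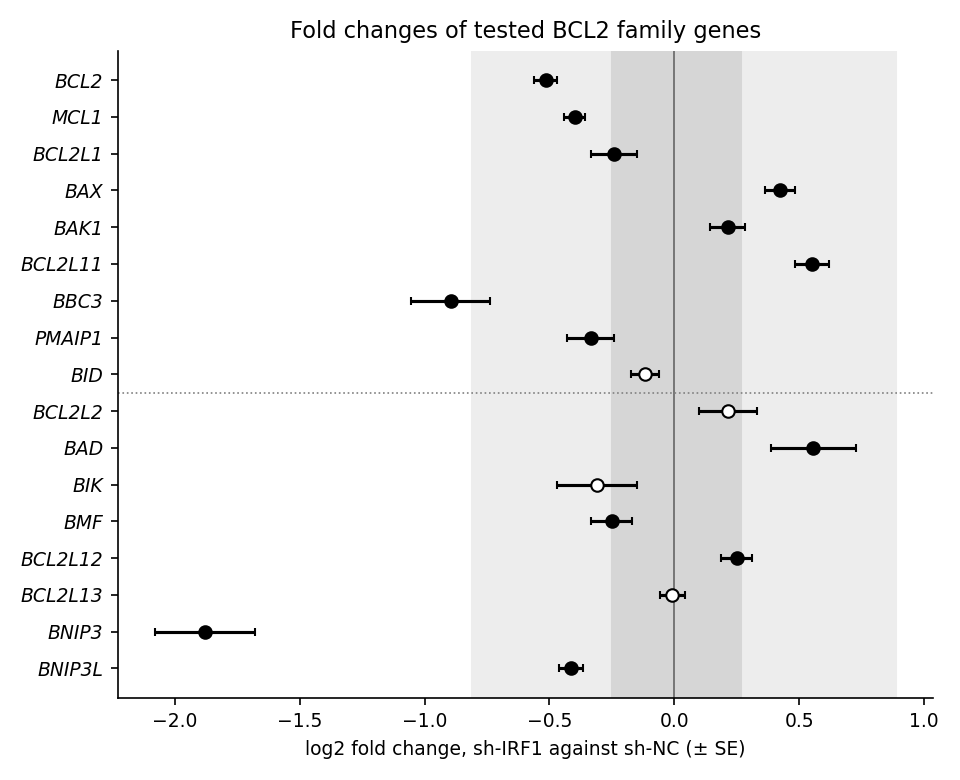
log2 fold changes (sh-IRF1 against sh-NC, bars ± SE from limma, 2 libraries a group) of the 9 tested members above the dotted line and of 8 other tested family genes below it, with filled points for adjusted p under 0.05. The dark band holds all tested genes between percentiles 25 and 75 (-0.25 to 0.27) and the pale band those between percentiles 5 and 95 (-0.81 to 0.89), so of the family genes drawn only BBC3 and BNIP3 lay outside both bands.

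Levels of different genes compare only per length, so normalized counts were divided by the exonic length in kilobases. On this scale MCL1 was the most abundant member in sh-NC (659.6 ± 4.57, SD, n = 2), followed by BAX (454 ± 20.3), BAK1 (385 ± 3.91), BID (349 ± 1.47), PMAIP1 (285 ± 15.9) and BCL2 (236 ± 1.34). BCL2L11 (149.8 ± 13.4) and BCL2L1 (144 ± 5.84) came next and overlapped between libraries, ahead of BBC3 (79.3 ± 1.30) and BCL2A1 (3.61 ± 2.19). In sh-IRF1, BAX (608 ± 4.09) stood above MCL1 (500.1 ± 6.11), and BCL2L11 (219.6 ± 17.0) reached the level of PMAIP1 (226 ± 7.93), with which it overlapped, and passed BCL2 (165 ± 3.03). BAK1 (447 ± 12.6), BID (321 ± 4.94), BCL2L1 (122 ± 5.43), BBC3 (42.6 ± 5.05) and BCL2A1 (13.4 ± 6.29) kept their places. With the length of the longest transcript in place of all exonic bases, BCL2 had rank 4 among the members in sh-NC rather than rank 6. In sh-IRF1 that length put BCL2L11 at 302 and 271 in libraries 1 and 2. It then overlapped with BCL2 (275 and 283) and lay above PMAIP1 (254 and 266). Places in the middle of this order thus depend on the length used.

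The summed anti-apoptotic level per kilobase was 1038 and 1048 in sh-NC and 794 and 806 in sh-IRF1, 76.7% of control. That of the effectors was 856 and 822 against 1049 and 1061, or 126%, and that of the BH3-only genes was 861 and 865 against 816 and 803, or 93.8%. The effector sum was thus below the anti-apoptotic sum in both control libraries and above it in both knockdown libraries, at a ratio of 0.825 and 0.785 in sh-NC against 1.32 and 1.32 in sh-IRF1. These sums and ratios carry no test across genes, and the smallest two-sided p that an exact permutation of 2 against 2 libraries can reach is 0.333. MCL1 made up 63.2% of the anti-apoptotic sum in sh-NC and 62.5% in sh-IRF1, BCL2 22.6% and 20.6%, BCL2L1 13.8% and 15.2%, and BCL2A1 0.347% and 1.68%. The make-up of the anti-apoptotic sum shifted little, with MCL1 and BCL2 taking most of it in every library.

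Ratios between single genes, most of them pairs whose products bind each other, showed how uneven the shifts were. The ratio of BAX to BCL2 per kilobase was 1.98 and 1.87 in sh-NC and 3.75 and 3.62 in sh-IRF1, 192% of control. That of BCL2L11 to BCL2 was 0.672 and 0.597 against 1.42 and 1.24, or 210%, and that of BCL2L11 to MCL1 was 0.243 and 0.212 against 0.459 and 0.419, or 193%. In contrast PMAIP1 and MCL1, which fell side by side, kept a ratio of 0.418 and 0.447 in sh-NC and 0.437 and 0.467 in sh-IRF1, with overlapping groups. The ratio of BCL2L11 to BBC3, the tested members with the largest rise and the largest fall, went from 1.99 and 1.79 to 5.93 and 4.50. Among tested members that pair must shift the most, so the size of this shift is no separate result.

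**Figure D3:**
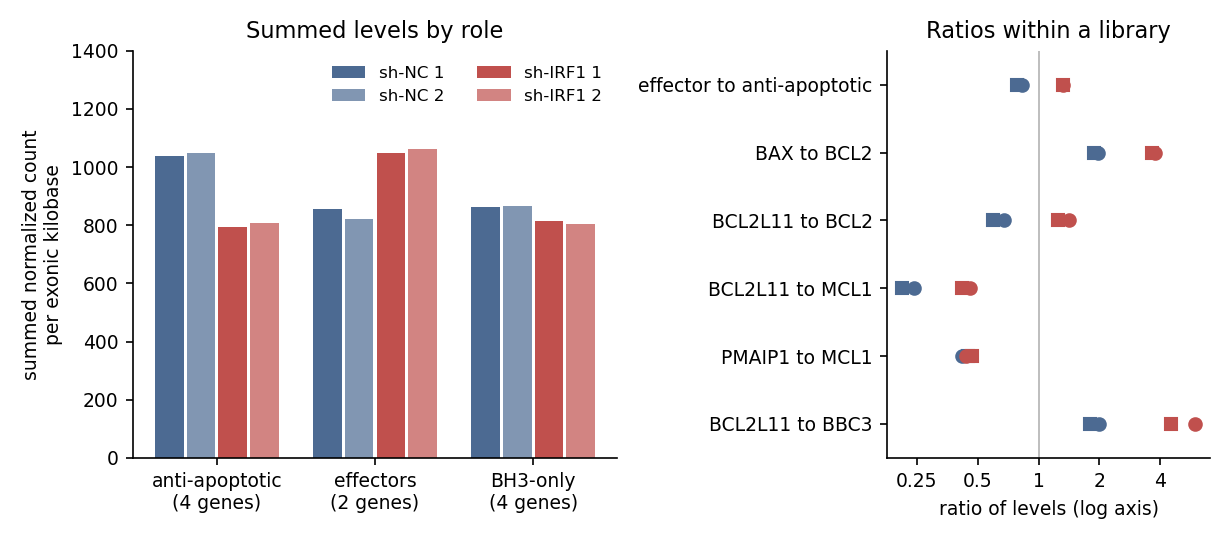
Left, summed normalized counts per exonic kilobase of the anti-apoptotic, effector and BH3-only genes, 1 bar per library. Right, ratios of levels per kilobase within each library on a log axis (circles library 1, squares library 2, sh-NC blue, sh-IRF1 red): the groups were apart for 5 of the 6 ratios drawn and overlapped for PMAIP1 to MCL1.

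The promoter windows of the members, from 250 bases before to 50 after a start in the RefSeq table (GRCh38.p14), were searched on both strands for 5 short motifs. Windows were found for 9 of the 10 genes, 14 windows in all, with MCL1 the gene without one. The IRF core GAAANNGAA, the letters that factors of the IRF family recognise, occurred in 2 members, BBC3 and BCL2A1, and in 8.11% of all 35116 windows. In BBC3 it occurred 3 times, in matches that overlap one another by 3 bases, as in 31 windows (0.0883%) that hold at least 3. The stretch below reads from 22 to 50 bases downstream of that start (chr19:47232618-47232646, minus strand), with the run of matches in capitals.
BBC3: atgaGAAACTGAAAAAGAAACGGAAtgga
The start of this window lies 1468 bases upstream of the 5′ end of the canonical GENCODE transcript of BBC3, and which start these cells use was not tested. BBC3 was the tested member with the largest fall in the knockdown. BCL2A1, the other member with this core, had 5 and 2 reads in sh-NC and 9 and 19 in sh-IRF1. Whether the core bears on either change was not tested. A match is a description of letters and shows no binding.

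In BCL2A1, the member at the edge of detection, the IRF core lay on the reverse strand at position -132 from the start, and a STAT motif TTCNNNGAA, present in 7.66% of all windows, at position -168. Both are in capitals in the stretch from -170 to -120 (chr15:79971316-79971366, minus strand).
BCL2A1: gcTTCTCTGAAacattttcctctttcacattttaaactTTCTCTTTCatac
The E-box CACGTG, read by MYC with MAX among other factors, occurred in BAX, BBC3 and BID, where 1 site falls in 2 overlapping windows, and in 7.26% of all windows. BAX held 4 copies, at positions -138, -93, -45 and -14, and only 5 windows of the table (0.0142%) held at least 4. They are in capitals in the 150 bases before the start (chr19:48954725-48954874, plus strand), which are shown for this density.
BAX: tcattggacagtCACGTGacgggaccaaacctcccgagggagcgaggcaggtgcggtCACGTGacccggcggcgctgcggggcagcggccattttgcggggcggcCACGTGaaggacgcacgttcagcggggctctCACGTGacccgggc
BCL2L11 held 1 FOXO motif TGTTTAC, found in 3.42% of windows, on the reverse strand at position -223, in capitals below (chr2:111120677-111120706, plus strand).
BCL2L11: gcagagttactccgGTAAACAcgccaggga
The ATF4 composite motif TGATGNAAT was in none of the members' windows and in 0.991% of all windows.

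For the tested members with the largest rise and the largest fall, the genes with the nearest profile over the 4 libraries were found among 9986 tested genes that averaged 100 or more, by Euclidean distance of centred log2 values. SORL1 (distance 0.0253), B4GALT7 (0.0516) and HAAO (0.0605) lay nearest to BCL2L11, which had 35 genes within 0.1. For BBC3 the nearest were ATL2 (0.0572), LINC02982 (0.0619) and USP18 (0.0662), with 11 genes within 0.1. With 4 points a profile is mainly the fold change and the order of the libraries within a group.

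Other genes of the BCL2 family were followed on a list of 13, of which BCL2L14 was not among the listed genes and 8 were tested, with 2 higher and 3 lower. The median log2 fold change of these 8 was -0.13, and 62.5% of them were called. Over all tested genes 42.2% were called, 20.3% higher and 21.9% lower. Among those averaging a normalized count of 100 or more the share was 52.9%. The counts of the lists below are to be read beside these shares. BNIP3, a mitophagy receptor that hypoxia induces, had the largest change among the tested genes of the family, from 206 and 225 in sh-NC to 63.7 and 52.5 in sh-IRF1 (log2 fold change -1.88, SE 0.201, adjusted p = 7.23e-11). The knockdown libraries averaged 26.9% of the controls, and reads of its named pseudogenes came to 5.93% of its own. Its relative BNIP3L, also a mitophagy receptor, fell from 2496 and 2461 to 1848 and 1873 (-0.41, adjusted p = 1.36e-09).

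BAD, a BH3-only protein that growth factor signalling keeps phosphorylated and inactive, rose from 145 and 119 to 198 and 189 (0.56, SE 0.170, adjusted p = 0.00660), a call lost without sh-NC library 2 (0.42, adjusted p = 0.0783) or without sh-IRF1 library 1 (0.52, adjusted p = 0.0723). BCL2L12 rose from 1259 and 1321 to 1627 and 1444 (0.25, adjusted p = 9.36e-04), and was not called without sh-IRF1 library 1 (0.16, adjusted p = 0.108). BAD shares 23.7% of its exonic bases with GPR137 and BCL2L12 shares 25.9% with IRF3, each on the opposite strand. GPR137 was called higher as well, at 379.5 and 386 against 510.3 and 459 (0.34, adjusted p = 0.00740), while IRF3 was not called (-0.049, adjusted p = 0.530). BMF, a BH3-only protein tied to the cytoskeleton, fell from 892 and 768 to 701 and 689.6 (-0.25, adjusted p = 0.0107). Its call was lost without sh-NC library 1 (-0.14, adjusted p = 0.256), in which it was highest, and without sh-IRF1 library 2 (adjusted p = 0.0816).

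BCL2L2 (BCL-W), a further anti-apoptotic gene, had 357 and 319 in sh-NC and 365 and 421 in sh-IRF1 and did not pass the test (0.21, adjusted p = 0.134), with 24.8% of its exonic bases shared. It was not lower in either knockdown library, unlike BCL2, MCL1 and BCL2L1. BIK, a BH3-only gene, had 210.3 and 193 against 151 and 174 (-0.31, adjusted p = 0.115). BCL2L13 had 2011 and 1945 against 1921 and 2015, with overlapping groups and a log2 fold change of -0.0074 (adjusted p = 0.926). BCL2L10, BOK, HRK and BCL2L15 had too few reads to be tested, with at most 8.21 normalized counts in any library.

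Downstream of the BCL2 family, the list of mitochondrial release and apoptosome genes had 12 tested genes, of which 0 were called higher and 6 lower. Its share called was 50%, near the 52.9% among all tested genes averaging a normalized count of 100 or more. Over all tested genes 20.3% were called higher and 21.9% lower. The list's median log2 fold change was -0.16. VDAC1, the main channel of the outer membrane, had the smallest p. It fell from 6036 and 5985 to 3606 and 3492, with both knockdown libraries near 59.0% of control (log2 fold change -0.76, SE 0.0377, adjusted p = 5.76e-22). Among the other genes of this list called lower were VDAC2 (-0.30, with pseudogene reads at 10.03% of its own), VDAC3 (-0.26), OPA1 (-0.21), DNM1L (-0.17) and CYCS (-0.15), which encodes cytochrome c. Both DNM1L (adjusted p = 0.0765 and 0.106) and CYCS (0.134 and 0.134) were not called without sh-NC library 2 or without sh-IRF1 library 2, nor DNM1L on scaling by total reads (0.0663).

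Of 10 tested caspase and substrate genes, 2 were higher and 3 lower. CASP2, an initiator caspase, rose from 2492 and 2538 to 3113 and 3275 (0.34, SE 0.0449, adjusted p = 1.25e-08). DFFA (0.28), with 10.2% of its exonic bases shared, was the other gene called higher, and PARP1 (-0.092) was among those called lower. The count of lower genes was 1, and PARP1 was not called, on scaling by total reads, with DESeq2, and without sh-NC library 1, sh-IRF1 library 1 or sh-IRF1 library 2, with adjusted p up to 0.560 for PARP1.

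Among 7 inhibitors of caspases, 3 were higher and 0 lower by limma. CFLAR, which encodes FLIP, an inhibitor of caspase-8 at the death receptors, rose from 1738 and 1641 to 2667 and 2826 (0.70, SE 0.0507, adjusted p = 4.35e-16). Its 2 knockdown libraries stood at 163% of control, and other genes cover 12.1% of its exonic bases. The other two called higher were BIRC3, at 5.13 and 13.4 against 28.8 and 30.9, and NAIP, at 55.4 and 28.8 against 89.5 and 83.4, both expressed at low levels. Reads of 4 named NAIP pseudogenes came to 83.9% of those of NAIP, so its value is uncertain. NAIP was not called without sh-NC library 2 (adjusted p = 0.0794), nor BIRC3 without sh-NC library 1 (0.0777), sh-IRF1 library 1 (0.0588) or sh-IRF1 library 2 (0.0772).

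The death receptor list had 8 tested genes, with 1 higher and 2 lower. TNFRSF1A, the main TNF receptor, fell from 4463 and 4499.8 to 3837 and 3707 (-0.25, SE 0.0392, adjusted p = 7.63e-07), and TNFRSF10B, a TRAIL receptor, was the other gene called lower (-0.36). RIPK1, a kinase that acts below that receptor, had 693 and 634 against 768 and 766 (0.21, SE 0.0819, adjusted p = 0.0344). The call of RIPK1 was lost without the filter (adjusted p = 0.0508), with DESeq2 (0.0914), and without sh-NC library 2 (0.241), sh-IRF1 library 1 (0.126) or sh-IRF1 library 2 (0.126).

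Regulators of turnover and phosphorylation of BCL2 family proteins gave 2 higher and 4 lower of 11 tested genes. TPT1, a small protein that binds MCL1 and BCL-XL, fell from 14680.1 and 14685 to 10237 and 9967 (-0.54, SE 0.0284, adjusted p = 5.57e-21), and 11.1% of its exonic bases lie in other genes as well. BAG6, a chaperone of the ubiquitin system, rose slightly, from 6898 and 7200.1 to 7877 and 7858 (0.16, SE 0.0329, adjusted p = 8.85e-05). BTRC (0.44) was the other higher gene, and BAG3 (-0.84), PPP3CA (-0.28) and HUWE1 (-0.15), a ubiquitin ligase of MCL1, were the others lower. BTRC was not called without sh-NC library 1 (adjusted p = 0.0665) or sh-IRF1 library 2 (0.199).

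Of 14 tested transcription factors known to act on family genes, IRF1 included, 4 were higher and 6 lower. MYC, which raises the apoptotic response of cells and can bind E-boxes, fell from 14198 and 14561 to 7379.7 and 7348 (-0.97, SE 0.0297, adjusted p = 1.03e-29). FOXO4, one of the FOXO factors that activate BCL2L11, rose from 326 and 353 to 521 and 558 (0.67, SE 0.105, adjusted p = 7.24e-07). The other FOXO genes of the list had lower means in sh-IRF1 and were not called or too low to test. Any effect on BCL2L11 was not tested. Among the other genes called higher were E2F1 (0.29) and STAT3 (0.14). Besides MYC and IRF1, the genes called lower were TP73 (-1.37), DDIT3 (-0.54), ATF4 (-0.51) and STAT5B (-0.35). With 1 library left out, calls were lost for TP73 (sh-NC library 1, adjusted p = 0.116, or sh-IRF1 library 2, 0.137), DDIT3 (sh-NC library 2, 0.234, or sh-IRF1 library 1, 0.298) and STAT3 (sh-NC library 1, 0.212, sh-IRF1 library 1, 0.201, or sh-IRF1 library 2, 0.0959). Other genes cover 39.6% of the exonic bases of DDIT3. In these lists the genes given with a log2 fold change alone were named after their values were seen. Over the 7 lists the shares of tested genes that were called ranged from 37.5% for death receptors to 71.4% for the transcription factors, IRF1 included. Only the death receptors lay below the 42.2% of all tested genes. Among all tested genes averaging a normalized count of 100 or more, 52.9% were called.

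**Figure D4:**
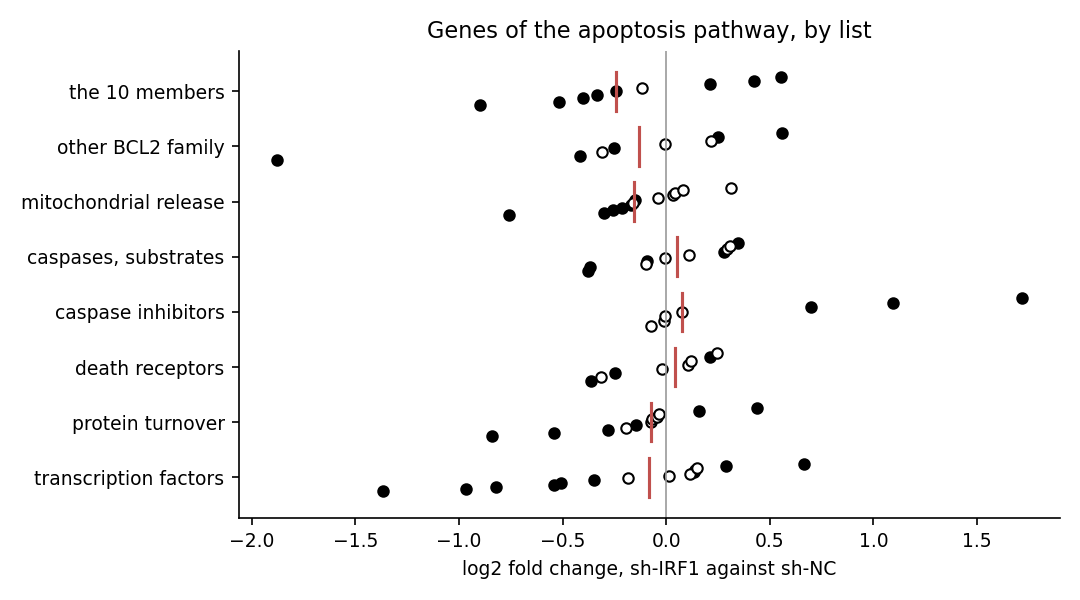
log2 fold changes (sh-IRF1 against sh-NC) of all tested genes of the members and of 7 further lists of the apoptosis pathway, 1 point a gene, filled where the adjusted p was under 0.05, with a red line at the list's median. Medians lay between -0.24 for the members and 0.074 for the inhibitors of caspases, and every list except the caspase inhibitors and the mitochondrial release genes held called genes on both sides of 0.

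The members' fold changes were recomputed under 15 other settings, in which 1 choice at a time was altered or 1 library left out. For BCL2, MCL1, BAX, BCL2L11, BBC3 and PMAIP1 the direction and the call held under all 15. BCL2 ranged from -0.53 to -0.47, MCL1 from -0.41 to -0.35, BAX from 0.38 to 0.47, BCL2L11 from 0.46 to 0.64, BBC3 from -1.02 to -0.78 and PMAIP1 from -0.39 to -0.28. The directions of BCL2L1, BAK1 and BID held as well. Without sh-IRF1 library 1, only BBC3 remained beyond a log2 fold change of 0.5, since BCL2 and BCL2L11 then fell short of it. Scaling by total reads left 2, without BCL2 (-0.47), and leaving out sh-NC library 2 left 2, without BCL2L11 (0.46).

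**Figure D5:**
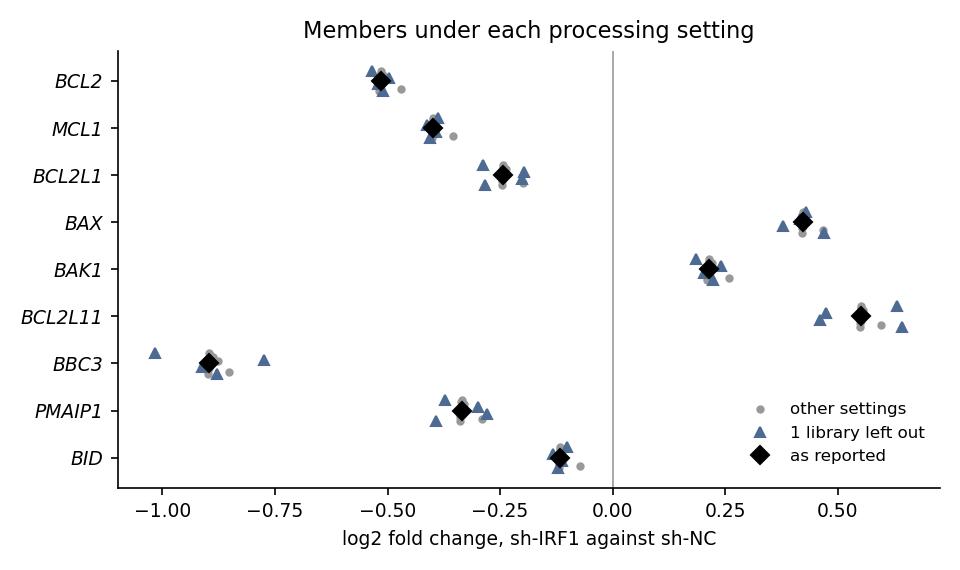
log2 fold changes of the 9 tested members as reported (black diamonds), with 1 library left out (blue triangles, 4 a gene) and under the other 11 settings (grey points). No member crossed 0, and the widest ranges were those of BBC3 (-1.02 to -0.78) and BCL2L11 (0.46 to 0.64), set by the libraries left out.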

How the data were processed

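Libraries of MV4-11 cells, 2 sh-NC and 2 sh-IRF1, were grouped by the sample labels. Per the labels, libraries were made from total RNA with a TruSeq RNA kit. The submitters' processing notes name HISAT2 2.0.5 and hg38, and the study's methods name FPKM and DESeq2. The counting tool, its annotation and its strand setting are not given in the sources used here. The deposited values are a normalized signal, not whole counts: each library's reads had been scaled by the authors with 1 size factor. Reads were recovered as multiples of the smallest value above 0, and 100% of the values were whole within 0.01 of a read. The table had 0 other columns of per-sample values. A change of total RNA per cell would not be seen, since no spike-in is described.

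The main test was limma 3.58.1 (R 4.3.3, trend and robust) on log2(value + 1), with genes at 10 or more in at least 2 libraries. All p-values were adjusted over the 14120 genes tested. Alternatives were other scalings, filters and pseudocounts, edgeR 4.0.16 and DESeq2 1.42.0 on the recovered reads, a replicate block, and each library left out. Symbols were matched for 23456 of 23622 identifiers. Positions, exonic lengths and overlaps came from GENCODE 44 (GRCh38), and promoter windows from RefSeq. The members and all lists were chosen with earlier results of these data known. Named genes were the members, the other BCL2 family genes, IRF1, and, per further list, the called genes with the smallest p among those higher and among those lower; other called genes are given by their log2 fold change alone. Some genes of these lists enter the counts but are not reported here by name. On simulated data, limma recovered 97 of 100 genes changed by a log2 fold change of 0.5 and 100 of 100 changed by 1. There were 9 false calls among 14118 genes. The simulation used the same fixed spread for all genes and changed only genes with ample reads, far fewer than were called here. Its rates therefore do not carry over to these libraries. Depth was between 17635908 and 18695337 reads, and each SE is limma's, with 2 libraries a group.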

Additional observations from a re-analysis of the deposited data

How the results depend on the processing

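Over 15 alternatives, the counts of members called higher (3) and lower (5) kept within 1.5 times, and the changes of call were those of BCL2L1 and BAK1. For BCL2L1 the log2 fold change was -0.20 (adjusted p = 0.0794) on scaling by total reads and -0.24 (0.0805) with DESeq2, and from -0.29 to -0.20 with 1 library left out. For BAK1 the range with 1 library left out was 0.18 to 0.24. The count of members beyond 0.5 ranged from 1 to 3 with 1 library left out, at 1 without sh-IRF1 replicate 1, and was 2 on scaling by total reads. With the longest transcript as length, the shares of the summed anti-apoptotic level were 26.8% (sh-NC) and 24.6% (sh-IRF1) for BCL2, 60.5% and 60.2% for MCL1, and 12.4% and 13.8% for BCL2L1. Of 598 values of the 40 other named genes, 553 kept their side of the threshold, 42 lost the call and 3 changed sign. The sign changes were all of BCL2L13, which was not called (-0.0074): 0.037 on scaling by total reads, and from -0.042 to 0.027 with 1 library left out. Scaling by total reads moved the median of all genes to 0.043 and gave 3433 genes higher and 2645 lower, against 2861 and 3092. edgeR gave 2910 and 3038, and DESeq2 2312 and 2605, with no adjusted p for 9160 genes.

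The replicate numbers did not pair the libraries: deviations of same-numbered libraries correlated at -0.015 over 14120 genes. With the number as a replicate block, 2903 genes were higher and 3147 lower, members stayed at 3 higher and 5 lower, and no call of a member changed. Depth limits BCL2A1, BCL2L10, BOK, HRK and BCL2L15.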
